A study of Mus musculus with 12 samples.

Results

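Galectins are lectins that bind β-galactosides on glycoproteins and glycolipids. They are made without a signal peptide, act both inside cells and after release, and cross-link glycosylated receptors at the cell surface. In brain tumors they are best known as products of tumor cells and of myeloid cells that bind integrins, extracellular matrix and receptors of immune cells. The genes described here were *Lgals1*, *Lgals3*, *Lgals8* and *Lgals9*, which encode galectins, and *Lgals3bp*, which encodes a secreted glycoprotein that binds galectin-3. They were taken by gene symbol from the expression table, in which all 5 were present among its 18180 genes. These genes had passed a filter on low values that the authors applied before deposition. Of 7 further genes of the family that were looked for, *Lgals4*, *Lgals7* and *Lgalsl* were in the table, and *Lgals2*, *Lgals6*, *Lgals12* and *Grifin* were not analysed here.

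The expression profiles came from mouse GBMs in which Cre, delivered by a lentivirus injected into the brain, switched on human *EGFR* among other engineered alleles, on a mixed background of Balb/cJ, SJL, FVBN/J, 129S4 and C57Bl/6J. Cells of 3 end-stage tumors, T3, T4 and T5, were stained for surface EGFR together with PDGFR or with Galectin-1, and EGFR+ cells of each tumor were sorted into PDGFRA+, PDGFRA-, GAL1+ and GAL1- populations, which gave 12 libraries of total RNA with n = 3 tumors per population. All populations carry the same alleles. The PDGFR and Galectin-1 sorts were separate stainings, so that a PDGFRA+ cell could also have been GAL1+ or GAL1-. The sources describe the sorted cells as CD45- in one place and name no CD45 antibody for this sort in another.

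Levels are log2 CPM, the log2 of a gene's reads scaled to the library size times the authors' normalization factor (TMM), with an offset of 0.5 read. Read numbers were recovered by taking the lowest value of a library as 0 reads. In T3, T4 and T5 they came to 24117541, 21728280 and 22742465 in GAL1- and to 17486645, 13788453 and 14741665 in GAL1+ cells. The PDGFRA- libraries held 16516049, 9851175 and 12062615 reads and the PDGFRA+ libraries 18522549, 10768492 and 18520302. The 5 members had between 59 and 6978 reads in every library, well above the 3 reads taken as the floor of detection, which covers counting error only. Some values came out as fractions of a read, since reads that map to several places were counted as fractions, and reads shared with similar sequences could not be assigned to 1 gene. Differences are log2 fold changes from limma's moderated test in a model of population and tumor, with tumors as blocks. A gene was called at an adjusted p under 0.05 (Benjamini-Hochberg, over all 18180 genes), and the adjusted p-values below are from that test.

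A PDGFRA- library, that of T5, stood near the GAL1+ libraries in leukocyte and progenitor markers. Its summed CPM over 12 pan-leukocyte markers was 3607, against 1332 in T3 and 793 in T4 of the same population and 3193 to 4642 in GAL1+ cells. Its sum over oligodendrocyte progenitor markers was 1059, against 4058 in T3 and 2832 in T4 and 602 to 1809 in GAL1+ cells. *Pdgfra*, the gene of the sorted protein, is among these progenitor markers, so its own level is no separate sign. It was 7.36 log2 CPM, against 10.11 in T3 and 8.62 in T4. In mature oligodendrocyte markers (939 CPM) the library stood with T3 and T4 of its population (694 and 1008) and not with GAL1+ cells (162 to 292). Results that involve PDGFRA- cells include this library, and several of the members' results are therefore also given without it. *Pdgfra* was higher in PDGFRA+ than in PDGFRA- cells of 3 of 3 tumors but was not called (log2 fold change 1.60, adjusted p = 0.249). The populations overlapped, with 10.11 log2 CPM in PDGFRA- cells of T3 and 9.95 in PDGFRA+ cells of T5. Its mean was 10.30 in PDGFRA+ and 10.55 in GAL1- cells. *Ptprc*, which encodes CD45, was detected in all 12 libraries, from 3.70 to 5.18 log2 CPM in GAL1- cells, and was higher in GAL1+ cells of 3 of 3 tumors (log2 fold change 4.04, adjusted p = 4.77e-05).

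The GAL1 sort separated all 5 members. Each had higher transcript levels in GAL1+ than in GAL1- cells of 3 of 3 tumors, and each was called, in a comparison in which 58.2% of all genes passed in either direction and 28.9% in this one. No member's GAL1+ and GAL1- libraries overlapped, which also held, in the same direction, for 30.1% of all genes. The members' median log2 fold change was 2.94, against −0.03 over all genes. In bulk samples, fewer cells of a type and less RNA per cell cannot be told apart.

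*Lgals1*, the gene of the protein that the sort used, checks the labels. It stood at 7.95, 7.64 and 7.41 log2 CPM in GAL1+ cells of T3, T4 and T5 and at 6.05, 6.28 and 6.81 in GAL1- cells. The GAL1+ level was highest in T3 and the GAL1- level highest in T5, and the populations did not overlap. Its log2 fold change was 1.29 (standard error 0.22, adjusted p = 0.000967), a 2.44-fold difference, so GAL1- cells retained *Lgals1* transcripts. The gene ranked 2611 of 18180 by this fold change.

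*Lgals3* encodes the chimera-type galectin that macrophages produce in abundance. It stood at 7.27, 7.02 and 7.66 log2 CPM in GAL1+ cells of T3, T4 and T5 and at 1.09, 2.65 and 4.56 in GAL1- cells. GAL1+ cells of the 3 tumors lay close together, while GAL1- cells spread from T3, the lowest, to T5, the highest. Its increase of 4.55 on the log2 scale (adjusted p = 6.73e-05, standard error 0.48) was the largest among the 5 members. *Lgals9*, whose tandem-repeat product is a ligand of the checkpoint receptor encoded by *Havcr2*, stood at 6.97, 7.15 and 7.07 log2 CPM in GAL1+ and at 3.92, 4.07 and 4.38 in GAL1- cells. Within each of these populations the *Lgals9* libraries differed little, with SDs of 0.09 and 0.24 (n = 3 tumors each). Its log2 fold change was 2.94 (standard error 0.29, adjusted p = 5.59e-05). *Lgals3bp* stood at 8.10, 9.12 and 9.03 log2 CPM in GAL1+ cells of T3, T4 and T5 and at 4.54, 5.54 and 5.71 in GAL1- cells. T3 was the lowest tumor in both populations. The *Lgals3bp* difference of 3.48 on the log2 scale (standard error 0.26, adjusted p = 3.93e-05) was nearly the same in each tumor, with values of 3.56, 3.58 and 3.32.

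*Lgals8*, whose tandem-repeat product binds glycans exposed on damaged vesicles, changed least. It stood at 5.06, 5.45 and 5.46 log2 CPM in GAL1+ cells of T3, T4 and T5 and at 4.50, 4.57 and 4.62 in GAL1- cells. The GAL1- libraries were almost alike and all below the lowest GAL1+ library. The log2 fold change was 0.76 (standard error 0.13, adjusted p = 0.000863), or 1.69-fold. Of the other galectin genes, *Lgalsl*, which encodes a galectin-related protein, went the opposite way. It stood at 4.04, 4.02 and 3.61 log2 CPM in GAL1+ and at 5.36, 5.20 and 5.59 in GAL1- cells. The populations did not overlap, and its log2 difference, −1.50 (adjusted p = 0.00394, standard error 0.34), was called, as were 29.3% of all genes in that direction. *Lgals4*, a galectin of the gut epithelium, stood between 0.43 and 2.40 log2 CPM over the 12 libraries, with a log2 fold change of −0.11 (95% confidence interval −0.93 to 0.70). *Lgals7*, a galectin of stratified epithelia, had 1 to 102 reads per library, at or under the floor in 5 of 12, and its log2 fold change of −0.17 had a 95% confidence interval of −2.07 to 1.73. Neither of them was called (adjusted p = 0.809 and 0.877).

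**Figure D1:**
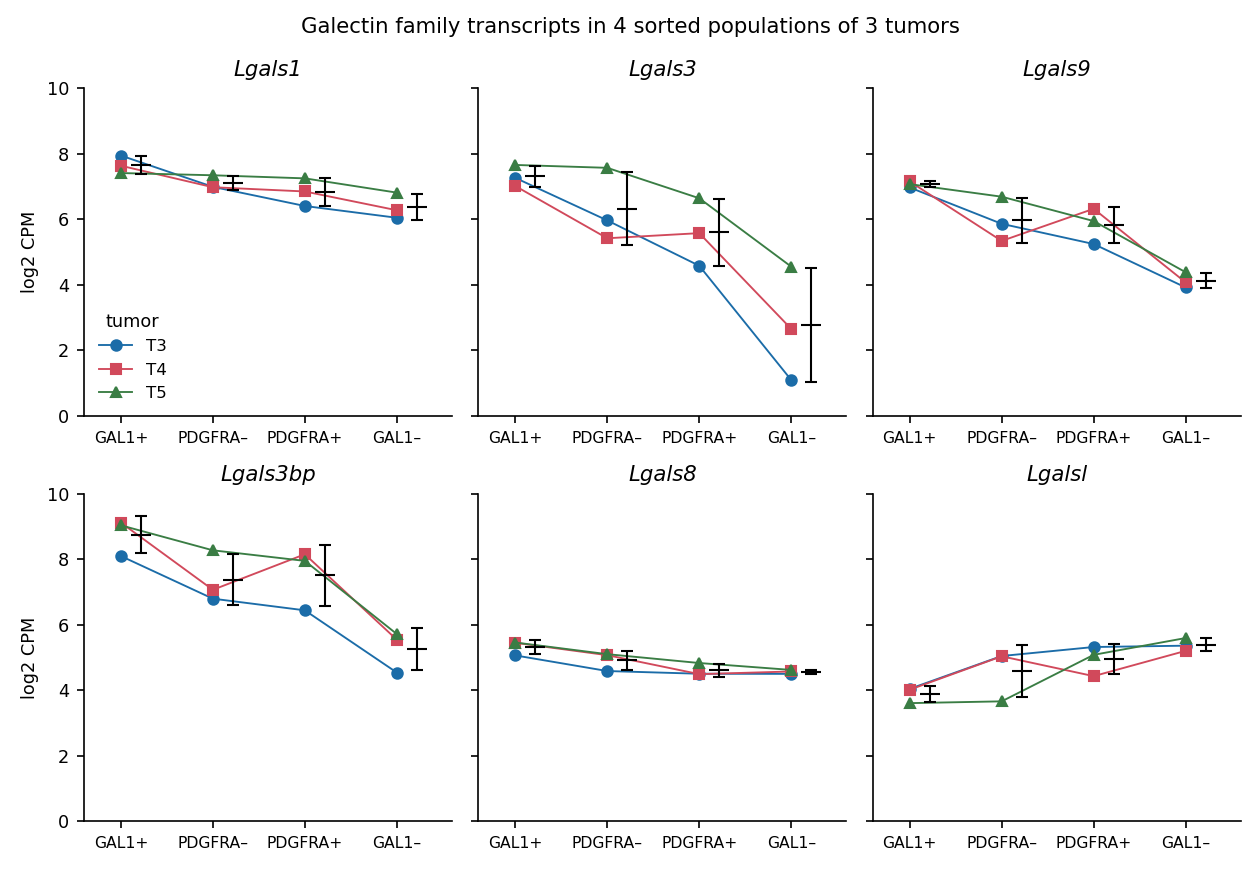
Transcript levels (log2 CPM, vertical axis) of the 5 members and *Lgalsl* in each of the 12 libraries, by sorted population (horizontal axis). Colored symbols are tumors, lines join the libraries of a tumor, and black bars are the mean ± SD of 3 tumors. GAL1+ cells hold the highest value of each tumor for all 5 members, and *Lgals3* spreads most widely in GAL1- cells, from 1.09 to 4.56.

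Within tumors, the GAL1 differences of *Lgals3*, *Lgals9* and *Lgals3bp* exceeded that of *Lgals1* in 3 of 3 tumors. An exact sign test on 3 pairs cannot give a two-sided p below 0.25, and no test of this order was made. For *Lgals1* T3, T4 and T5 gave differences of 1.90, 1.36 and 0.60 on the log2 scale. Those of *Lgals3* were 6.17, 4.36 and 3.10. Both were largest in T3 and smallest in T5, whereas the *Lgals9* and *Lgals3bp* differences varied by 0.39 and 0.26 between tumors. The *Lgals8* difference exceeded that of *Lgals1* only in T5, where it was 0.84.

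The PDGFRA sort addressed whether the family differs between EGFR+ cells with and without surface PDGFRA. Of all genes, 0% were called between PDGFRA+ and PDGFRA- cells by limma (0 genes, smallest adjusted p 0.181), while 2137 had an unadjusted p under 0.05, and no member was called. In PDGFRA+ cells of T3, T4 and T5, *Lgals1* stood at 6.41, 6.85 and 7.25 log2 CPM, and in PDGFRA- cells at 6.99, 6.98 and 7.34. *Lgals1* and *Lgals8* were lower in PDGFRA+ cells of each tumor, although their populations overlapped. The log2 fold change was −0.27 for *Lgals1* (95% confidence interval −0.77 to 0.23) and −0.31 for *Lgals8* (−0.60 to −0.02, adjusted p = 0.403).

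T4 differed from T3 and T5 in the other members. *Lgals3* stood at 4.58, 5.58 and 6.64 log2 CPM in PDGFRA+ and at 5.97, 5.42 and 7.57 in PDGFRA- cells of T3, T4 and T5. *Lgals9* stood at 5.25, 6.32 and 5.95 in PDGFRA+ and at 5.86, 5.34 and 6.69 in PDGFRA- cells. *Lgals3bp* stood at 6.44, 8.15 and 7.95 in PDGFRA+ and at 6.79, 7.06 and 8.27 in PDGFRA- cells. In T4 all of these were higher in PDGFRA+ cells, and in T3 and T5 all were lower. The log2 fold changes were −0.72 for *Lgals3* (95% confidence interval −1.79 to 0.35), −0.13 for *Lgals9* (−0.78 to 0.53) and 0.14 for *Lgals3bp* (−0.44 to 0.71). Without the PDGFRA- library of T5 they were −0.62, 0.17 and 0.39, and *Lgals9* changed sign. Without T4 the *Lgals3bp* value was −0.34, and without T3 or T5 the *Lgals9* value was 0.12 or 0.18. Summed pan-leukocyte markers followed the same pattern across tumors. They were at 734, 1658 and 1753 CPM in PDGFRA+ and at 1332, 793 and 3607 CPM in PDGFRA- cells of T3, T4 and T5, and their part in the result was not tested.

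The difference between the sorts was itself tested, as the GAL1+ minus GAL1- difference less the PDGFRA+ minus PDGFRA- difference. For all 5 members it was above 0 and called, as it was for 26.2% of all genes. On the log2 scale it was 5.26 for *Lgals3* (adjusted p = 0.000365), 3.35 for *Lgals3bp* (0.000275), 3.07 for *Lgals9* (0.000426), 1.55 for *Lgals1* (0.00303) and 1.07 for *Lgals8* (0.00123), with the same sign in 3 of 3 tumors. Without the PDGFRA- library of T5 these were 5.17, 3.10, 2.77, 1.53 and 1.05, all called. *Lgalsl* gave −1.86 (adjusted p = 0.00930), and 24.9% of all genes were called in that direction. Its values in T3, T4 and T5 were −1.59, −0.58 and −3.41. *Lgalsl* stood at 3.66 log2 CPM in the PDGFRA- library of T5, against 5.04 in T3 and 5.04 in T4. No value without that library is given for this gene.

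**Figure D2:**
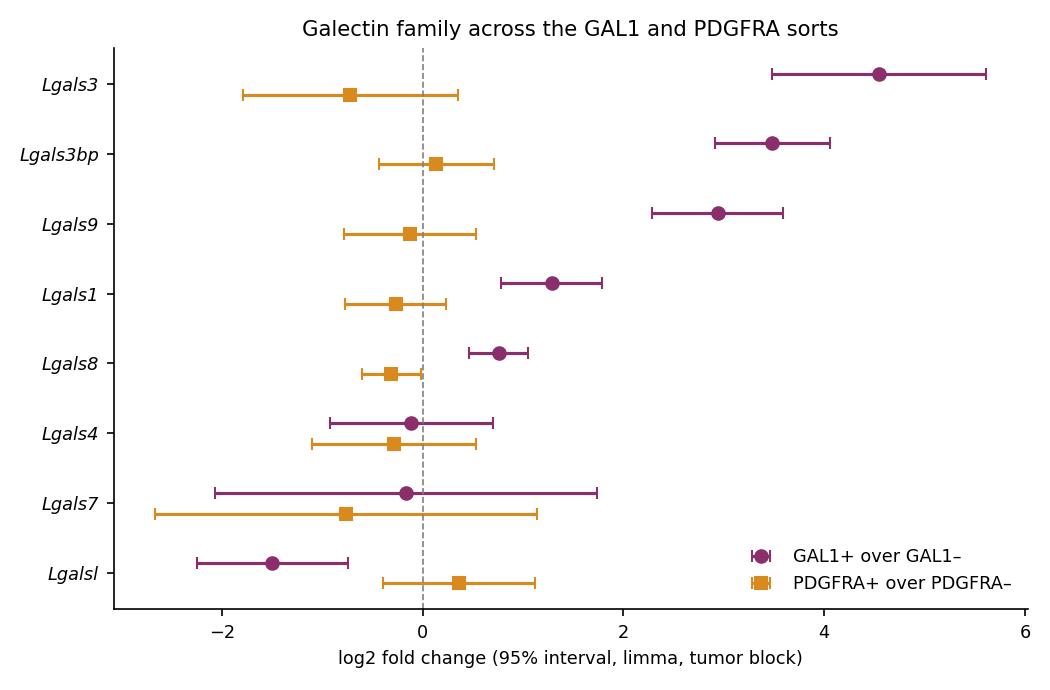
Log2 fold changes (horizontal axis) of 8 galectin family genes (vertical axis) between GAL1+ and GAL1- cells (circles) and between PDGFRA+ and PDGFRA- cells (squares), from limma with the tumor as a block. Bars are 95% confidence intervals, n = 3 tumors per population. In the GAL1 sort *Lgals3* is at 4.55 and *Lgalsl* at −1.50, while in the PDGFRA sort the 5 members lie between −0.72 and 0.14. Among the 5 members, *Lgals9* and *Lgals3bp* change sign in the PDGFRA sort when a tumor is left out.

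The 4 comparisons across the sorts share libraries with those above and with each other, so their values are given side by side. Between PDGFRA+ and GAL1+ cells, the populations positive for either stain, all 5 members were called lower in PDGFRA+ cells, as were 17.0% of all genes. The log2 fold changes were −1.71 for *Lgals3* (adjusted p = 0.0204), −1.24 for *Lgals3bp* (0.00623), −1.23 for *Lgals9* (0.0109), −0.83 for *Lgals1* (0.0186) and −0.71 for *Lgals8* (0.00369). Every member was lower in 3 of 3 tumors. In the same comparison 12 of 12 pan-leukocyte (median log2 fold change −1.57) and 10 of 10 macrophage and monocyte markers (−1.84) were called lower. All 6 oligodendrocyte progenitor markers were called higher (2.28), and the part of these cell types was not tested. Without the tumor block, *Lgals3* and *Lgals3bp* were not called (adjusted p = 0.156 and 0.119). Without T3, *Lgals8* was still called (adjusted p = 0.0328) and the other members were not (0.0885 to 0.175). Leaving out T4 ended the calls of *Lgals1* (0.0863) and *Lgals3* (0.0542), and quantile normalization that of *Lgals1* (0.0602). *Lgalsl* was called higher in PDGFRA+ cells (log2 fold change 1.05, adjusted p = 0.0339), in a direction in which 20.9% of all genes were called.

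Between PDGFRA- and GAL1+ cells, *Lgals3bp* (log2 fold change −1.37, adjusted p = 0.0112) and *Lgals9* (−1.10, adjusted p = 0.0304) were called lower in PDGFRA- cells, 2 of 5 members against 6.91% of all genes. All 5 members were lower in each tumor, but T5 stood apart. In that tumor *Lgals1* and *Lgals3* differed between the populations by −0.07 and −0.09 on the log2 scale. Without the PDGFRA- library of T5 the values were −1.62 for *Lgals3bp* and −1.40 for *Lgals9*, and these were again the members called. Without T3, without T4 or without the tumor block neither was called (adjusted p = 0.0819 to 0.167). *Lgals8* (−0.40, adjusted p = 0.0554) was not called but passed under 3 of 14 alternatives, which were quantile normalization (0.0480), median centring (0.0303) and voom weights (0.0464), in a range of 0.0303 to 0.239. *Lgals1* (−0.56, adjusted p = 0.104) passed after median centring (0.0293) and without T5 (0.0371). Of the markers, 3 of 12 pan-leukocyte (median log2 fold change −1.30), 4 of 10 macrophage and monocyte (−1.35) and 6 of 9 microglia markers (−1.78) were called lower in PDGFRA- cells. Of 6 oligodendrocyte progenitor markers 4 were called higher (1.47), and the part of these cell types was not tested.

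Between PDGFRA+ and GAL1- cells, 3 of 5 members were called higher in PDGFRA+ cells, against 8.26% of all genes. These were *Lgals3* (log2 fold change 2.83, adjusted p = 0.00531), *Lgals3bp* (2.25, 0.00191) and *Lgals9* (1.71, 0.00569), each higher in 3 of 3 tumors. Without T3, where 0 genes of all were called, none of them passed (adjusted p = 0.0805, 0.0805 and 0.0950), and without the block *Lgals3* was not (0.0982). *Lgals1* (0.46, adjusted p = 0.352) was not called, although it was higher in 3 of 3 tumors and passed when those populations were fitted alone (0.00778). *Lgals8* (0.04, adjusted p = 0.886) turned to −0.048 after quantile normalization, to −0.069 after centring each library on its median and to −0.038 without T5. Markers called higher in PDGFRA+ cells were 12 of 12 pan-leukocyte (median log2 fold change 2.80), 8 of 10 macrophage and monocyte (4.08), 8 of 9 microglia (2.89) and 7 of 8 endothelial (1.88). Of 6 oligodendrocyte progenitor markers 0 were called (−0.33), and the part of these cell types was not tested.

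Between PDGFRA- and GAL1- cells, 4 of 5 members were called higher in PDGFRA- cells, against 16.2% of all genes. The log2 fold changes were 3.55 for *Lgals3* (adjusted p = 0.00122), 2.11 for *Lgals3bp* (0.000925), 1.84 for *Lgals9* (0.00250) and 0.73 for *Lgals1* (0.0447). *Lgals8* was not called (0.36, adjusted p = 0.0761). Without the PDGFRA- library of T5 they were 3.46, 1.86, 1.54 and 0.71, and *Lgals1* was not called (adjusted p = 0.138). The *Lgals1* call was also lost under 7 other alternatives, among them the fit without the block (0.112) and leaving out T3, T4 or T5 (0.112, 0.133 and 0.0671). Leaving out T5 also ended the call of *Lgals9* (0.0540). With all libraries, 12 of 12 pan-leukocyte (median log2 fold change 3.14), 9 of 10 macrophage and monocyte (4.27) and 7 of 8 endothelial markers (1.78) were called higher. Of 6 oligodendrocyte progenitor markers 3 were called lower (−1.10), and the part of these cell types was not tested.

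Ordered by mean log2 CPM (± SD, n = 3 tumors), *Lgals1* ran from 7.66 ± 0.27 in GAL1+ through 7.10 ± 0.21 in PDGFRA- and 6.84 ± 0.42 in PDGFRA+ to 6.38 ± 0.39 in GAL1- cells. This order held within each tumor, although no neighboring pair was called. *Lgals3* had the same order of means, with 7.31 ± 0.32, 6.32 ± 1.12, 5.60 ± 1.03 and 2.77 ± 1.73. Only its last step, from PDGFRA+ to GAL1- cells, was called. *Lgals9* ran from 7.07 ± 0.09 through 5.96 ± 0.68 and 5.84 ± 0.55 to 4.13 ± 0.24, where the first and last steps were called. In T4 both *Lgals3* and *Lgals9* departed from this order and were higher in PDGFRA+ than in PDGFRA- cells. *Lgals3bp* placed PDGFRA+ (7.51 ± 0.93) beside PDGFRA- cells (7.38 ± 0.79), between GAL1+ (8.75 ± 0.57) and GAL1- cells (5.26 ± 0.63). The *Lgals3bp* difference between PDGFRA+ and PDGFRA- cells was not called, and its direction in T4 was opposite to that in T3 and T5. *Lgals8* fell in small steps from 5.32 ± 0.22 through 4.92 ± 0.29 and 4.61 ± 0.19 to 4.56 ± 0.06, none of them called, although the first passed under 3 of 14 alternatives. In T4 *Lgals8* was higher in GAL1- than in PDGFRA+ cells.

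Levels of different genes were compared per kilobase of exon, with lengths from GENCODE M21, an annotation of GRCm38 and not of the build the authors counted on. In GAL1+ cells *Lgals1* had 257 ± 48.2 CPM per kilobase (SD, n = 3 tumors) and *Lgals3bp* 193 ± 66.2, which overlapped within their spread. *Lgals3* (102 ± 23.3 CPM per kilobase) and *Lgals9* (83.2 ± 5.26) followed, and they too overlapped within their spread. *Lgals8* had 13.2 ± 1.96 CPM per kilobase. In GAL1- cells *Lgals1* stood far above the rest, with 107 CPM per kilobase against 17.5 ± 6.64 for *Lgals3bp*, 10.9 ± 1.83 for *Lgals9* and 7.74 ± 0.324 for *Lgals8*. *Lgals3* (6.70 ± 7.13) could not be ranked against these there, since its spread between tumors exceeded its mean.

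Markers of other cell types differed between the same populations. All 12 pan-leukocyte markers were called higher in GAL1+ than in GAL1- cells (median log2 fold change 4.44), as were all 10 macrophage and monocyte markers (5.81), all 9 microglia markers (4.52), all 8 endothelial markers (2.44) and 6 of 7 mural and fibroblast markers (2.08). Of 6 neutrophil markers 3 were called higher (median 1.14), and of 8 T and NK cell markers 2 (−0.11). In the opposite direction, all 6 oligodendrocyte progenitor markers (median −2.67), all 7 mature oligodendrocyte markers (−1.30), 3 of 7 astrocyte markers (−0.60) and 2 of 5 neuron markers (−1.45) were called lower in GAL1+ cells. *Ptprc* is both a pan-leukocyte marker and a galectin binding partner in the lists used here.

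Summed over the list, pan-leukocyte markers were at 3193, 3808 and 4642 CPM in GAL1+ cells of T3, T4 and T5 and at 98.1, 252 and 230 CPM in GAL1- cells. Macrophage and monocyte markers summed to 2508, 2290 and 2905 CPM in GAL1+ and to 26.6, 61.9 and 93.0 CPM in GAL1- cells. Microglia markers summed to 1805, 2484 and 2219 CPM in GAL1+ and to 82.6, 152 and 99.3 CPM in GAL1- cells. In GAL1- cells the macrophage sum, like each of the members, was lowest in T3 and highest in T5. The pan-leukocyte and microglia sums there were also lowest in T3 but were highest in T4. Endothelial markers summed to 320 to 407 CPM in GAL1+ and 57.3 to 101 CPM in GAL1- cells, and mural and fibroblast markers to 178 to 428 and 43.4 to 157 CPM. Oligodendrocyte progenitor markers went the other way, from 602 to 1809 CPM in GAL1+ and from 4794 to 5976 CPM in GAL1- cells.

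In PDGFRA- cells of T3, T4 and T5 the macrophage and monocyte sum was 908, 497 and 2616 CPM, and in PDGFRA+ cells 491, 849 and 1058 CPM. The microglia sum was 581, 325 and 1250 CPM in PDGFRA- and 423, 1134 and 814 CPM in PDGFRA+ cells. Both sums, like *Lgals3*, *Lgals9* and *Lgals3bp*, were higher in PDGFRA+ cells only in T4. Mature oligodendrocyte markers went another way, with sums of 694, 1008 and 939 CPM in PDGFRA- and 332, 259 and 317 CPM in PDGFRA+ cells. Of these 7 markers 0 were called between PDGFRA+ and PDGFRA- cells (median log2 fold change −1.86), and 7 were called higher in PDGFRA- than in GAL1+ cells (2.51), against 13.2% of all genes. The most abundant pan-leukocyte gene was *Lcp1* in 8 and *Laptm5* in 4 of the 12 libraries, and the most abundant macrophage gene *Lyz2* in 7 and *Tgfbi* in 5. *Flt1* led the endothelial list in 12 libraries and *Ptprz1* the progenitor list in 11. The mural list was led by *Col1a1* in 6 libraries, *Col1a2* in 3 and *Rgs5* in 3. No marker was at or under the floor in all libraries, and *Fcrls*, *Mmp8*, *Ngp*, *Cd3d*, *Lum*, *Rbfox3*, *Slc17a7*, *Mog* and *Opalin* were in some. The part of these cell types in the members' results was not tested.

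**Figure D3:**
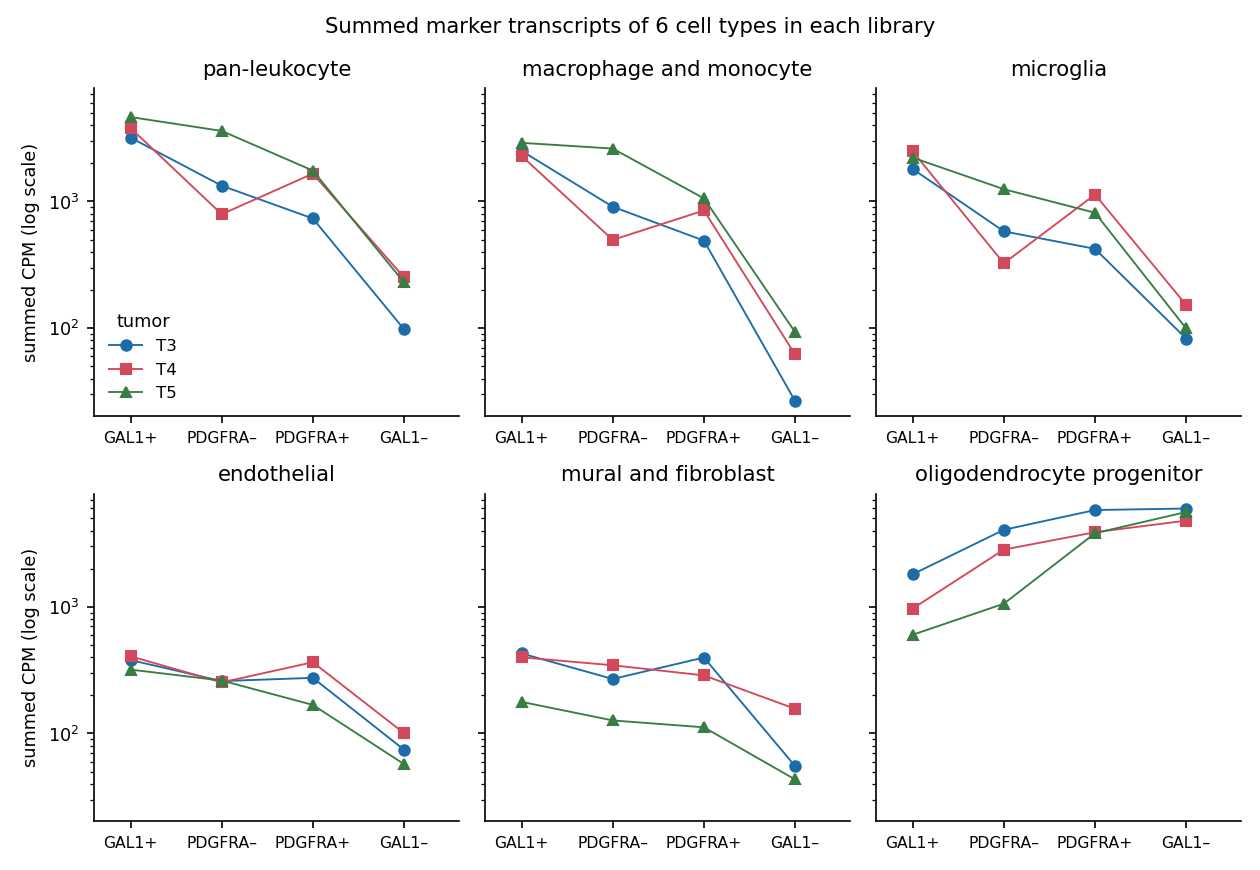
Summed CPM of marker genes (vertical axis, log scale) for 6 cell types in each of the 12 libraries, by sorted population (horizontal axis). Colored symbols are tumors and lines join the libraries of a tumor. Pan-leukocyte sums run from 98.1 to 252 CPM in GAL1- and from 3193 to 4642 CPM in GAL1+ cells, and the PDGFRA- library of T5 lies at 3607.

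Transcripts of proteins that galectins bind, as receptors or as matrix, were compared across the GAL1 sort. Of 25 such genes in the table, 18 passed with higher and 2 with lower levels in GAL1+ cells (median log2 fold change 1.61, against −0.03 over all genes). Over all genes 28.9% were called higher and 29.3% lower, which is the background for each list of genes in the GAL1 sort. In the same sort 12 of 12 pan-leukocyte markers were called higher (median 4.44). The part of cell types in the result of each list was not tested. The largest increases were in *Trem2*, a lipid receptor of myeloid cells (6.23, adjusted p = 0.000113), *Itgam*, the integrin chain CD11b (5.78, adjusted p = 3.93e-05), and *Fn1*, fibronectin (4.48, adjusted p = 3.93e-05). *Alcam*, an adhesion molecule (−1.50, adjusted p = 0.000187), and *Tfrc*, the transferrin receptor (−0.90, adjusted p = 0.000635), were lower. *Fn1* was abundant in every population, from 7.56 ± 0.48 log2 CPM in GAL1- to 12.04 ± 0.16 in GAL1+ cells. In the PDGFRA sort 0 of the 25 were called (median −0.12), and between PDGFRA+ and GAL1+ cells 13 were lower and 2 higher (−0.86), against 17.0% and 20.9% of all genes.

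Transcripts of enzymes that build or cap the glycans galectins recognize were compared in the same way. Of 19 genes, 13 rose and 2 fell from GAL1- to GAL1+ cells among called genes (median log2 fold change 0.84), against 28.9% and 29.3% of all genes. *B4galt1*, which adds the galactose of N-acetyllactosamine, was higher by 3.58, *Man2a1*, a Golgi mannosidase that trims N-glycans, by 3.44, and *St3gal1*, a sialyltransferase of O-glycans, by 3.30 (each adjusted p under 4.2e-05). *Mgat3*, which adds the bisecting branch to N-glycans, was lower (−2.06, adjusted p = 0.000132), as was *Fut8*, the core fucosyltransferase (−0.89, adjusted p = 0.000997). In the PDGFRA sort 0 of the 19 were called (median −0.15), and between PDGFRA+ and GAL1+ cells 11 were lower and 2 higher (−0.49), against 17.0% and 20.9% of all genes.

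Galectins mark damaged lysosomes, and of 15 genes of lysosome damage and lysophagy 9 passed as higher and 1 as lower in the GAL1 sort (median log2 fold change 0.57), against 28.9% and 29.3% of all genes. *Sqstm1*, an autophagy receptor, was higher by 1.96 (adjusted p = 3.93e-05), *Trim16*, a galectin-3 partner in lysophagy, by 1.25 (adjusted p = 0.000767), and *Rragc*, a Rag GTPase, by 1.13 (adjusted p = 0.000138). *Nbr1*, another autophagy receptor, was the gene called lower (−0.53, adjusted p = 0.00242). Interferon-stimulated genes were included because *Lgals9* and *Lgals3bp* are known to respond to interferon. Of 18 such genes 9 were called higher and 0 lower (median 0.55), beside the same shares of all genes, led by *Irf7* (3.01, adjusted p = 7.07e-05), *Rsad2* (2.55, adjusted p = 9.77e-05) and *Mx1* (2.48, adjusted p = 0.000212). Between PDGFRA+ and PDGFRA- cells 0 of these 15 and 0 of these 18 were called, with medians of −0.15 and −0.20. Between PDGFRA+ and GAL1+ cells 7 of the 15 were lower and 1 higher (median −0.34), and 7 of the 18 were lower and 0 higher (−0.37), against 17.0% and 20.9% of all genes.

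The genes whose patterns over the 12 libraries were most like each member were found by the root mean square difference of log2 CPM after each gene was centred on its own mean, among 10283 genes with a mean of at least 3 log2 CPM. Nearest to *Lgals1* were *Mroh1* (0.180), *Isg15* (0.195), an interferon-stimulated gene, and *Piezo1* (0.208), a mechanosensitive channel. *Lgals3* had *Xdh* (0.342), xanthine dehydrogenase, *Ifi211* (0.371) and *Ifi204* (0.377), of the interferon-inducible Ifi200 family. Nearest to *Lgals9* were *Nfkbie* (0.156), an NF-κB inhibitor, *Tmsb4x* (0.164), thymosin beta-4, and *Bmp2k* (0.165). *Lgals3bp* had *AU020206* (0.170), *Myo1e* (0.194), a class I myosin, and *Prdm1* (0.209), a transcriptional repressor. *Lgals8*, which varied least, had *Zfand5* (0.0938), *Eif5* (0.101), a translation initiation factor, and *Cep83* (0.111). A gene without any variation would lie at a member's own SD, 0.54 for *Lgals1*, 1.94 for *Lgals3*, 0.35 for *Lgals8*, 1.12 for *Lgals9* and 1.39 for *Lgals3bp*. Among the members themselves *Lgals8* and *Lgals1* were 0.348 apart. This was about as far as *Lgals8* would be from a gene without variation, and closer than *Lgals1* would be (0.54). *Lgals9* was 0.428 from *Lgals3bp*, while *Lgals3* was at least 0.840 from every other member. These distances share libraries and tumors and are descriptions.

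Promoters are shown for *Lgals3*, *Lgals9* and *Lgals3bp*, the members with the largest log2 fold changes in the GAL1 sort. RefSeq windows of GRCm38.p6, an earlier build than the mm39 the authors counted on, from 250 bases before to 50 bases after the gene start, were matched for 4 of the 5 members, all but *Lgals1*. Motifs, chosen after the members' values were seen, were searched on both strands. The interferon regulatory factor core AANNGAAA was in 23.9% of 32851 windows. It matched 3 times in *Lgals9* and 1 time in *Lgals3bp*, and 0 times in *Lgals3* and *Lgals8*. The AP-1 motif TGAGTCA (5.20% of windows), the PU.1 motif GAGGAAGT (3.20%) and the TATA box TATAAA (13.6%) matched in none of the 4. In the window of *Lgals9* (chr11:78984875-78985174, minus strand) the matches lay at bases 100 to 107, 196 to 203 and 266 to 273, and in that of *Lgals3bp* (chr11:118401910-118402209, minus strand) at bases 237 to 244. The window of *Lgals3* was chr14:47373610-47373909, plus strand. Each is written 5′ to 3′ on the strand of the gene, with matches to AANNGAAA or its reverse complement in capitals. A match is a description of the letters and not a binding site.
Lgals9: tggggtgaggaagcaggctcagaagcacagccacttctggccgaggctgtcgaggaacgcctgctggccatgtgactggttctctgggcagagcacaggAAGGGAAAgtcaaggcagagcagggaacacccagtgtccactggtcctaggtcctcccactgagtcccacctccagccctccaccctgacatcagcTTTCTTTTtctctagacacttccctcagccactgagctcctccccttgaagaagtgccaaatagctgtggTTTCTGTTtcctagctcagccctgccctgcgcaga
Lgals3bp: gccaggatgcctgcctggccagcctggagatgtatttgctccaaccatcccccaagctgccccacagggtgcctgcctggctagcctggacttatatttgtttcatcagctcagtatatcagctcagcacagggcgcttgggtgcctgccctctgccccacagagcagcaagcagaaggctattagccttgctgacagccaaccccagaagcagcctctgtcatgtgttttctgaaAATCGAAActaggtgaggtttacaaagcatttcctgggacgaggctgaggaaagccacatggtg
Lgals3: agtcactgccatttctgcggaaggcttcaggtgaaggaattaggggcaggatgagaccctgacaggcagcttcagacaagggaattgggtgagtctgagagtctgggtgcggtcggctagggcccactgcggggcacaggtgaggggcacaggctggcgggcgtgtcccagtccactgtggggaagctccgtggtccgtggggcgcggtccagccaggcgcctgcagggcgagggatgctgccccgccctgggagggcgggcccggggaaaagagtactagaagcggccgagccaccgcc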

How the data were processed

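Per the submitters' notes and the study's methods, the authors trimmed reads (fastp), aligned them to mm39 (STAR), and summed them over exons (featureCounts, fractions for reads mapping to several places). Genes whose CPM exceeded 1 in 3 or more samples stayed in, and TMM and voom were applied. The deposited unit is log2 CPM, for 18180 genes in 12 samples, and everything here was computed from these values.

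Population and tumor terms were fitted to the 12 samples in R 4.3.3 using limma 3.58.1 (trended eBayes, two-sided, 6 residual and 3.49 prior degrees of freedom). Genes were called where the adjusted p (Benjamini-Hochberg, all genes) was under 0.05. The model was tested on simulated data. Tables and figures were made with pandas 2.3.3 and matplotlib 3.10.9 in Python 3.11.15. Tumor numbers in the sample labels pair the libraries: residual profiles of the same tumor correlated at a mean r of 0.486 across genes (18 pairs, 0.140 to 0.662), and genes are not independent replicates. Recovered reads ranged from 9851175 to 24117541 per library.

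Named genes were the members, other galectin genes in the table and, from each of the binding partner, glycan enzyme, lysosome damage and interferon-stimulated lists, up to 3 with the largest positive and 3 with the largest negative log2 fold changes in the GAL1 sort among called genes with 1 sign in all 3 tumors, with *Pdgfra* and *Ptprc* as checks. For similar patterns the 3 nearest genes were taken, without predicted genes. The members and lists were chosen with earlier results of these data known. Alternatives were no replicate block, only the populations compared, eBayes without a trend or robust, vooma weights, a pseudocount of 1 CPM, voom weights from the recovered reads, a filter requiring 3 samples over a log2 CPM of 1, quantile normalization, median centring, and leaving out each tumor. Leaving out the PDGFRA- library of T5, and the alternatives for the difference between the sorts, were added after seeing the data.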

Additional observations from a re-analysis of the deposited data

Results flagged for a closer look

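In 6 galectin family genes the difference between GAL1+ and GAL1- cells was not the same as that between PDGFRA+ and PDGFRA- cells, by limma's test of the difference between the sorts (adjusted p over all genes). The GAL1 difference less the PDGFRA difference, on the log2 scale, was 5.26 for *Lgals3* (95% confidence interval 3.76 to 6.77, adjusted p = 0.000365). It was 3.35 for *Lgals3bp* (2.54 to 4.16, adjusted p = 0.000275) and 3.07 for *Lgals9* (2.14 to 3.99, adjusted p = 0.000426). For *Lgals1*, the gene of the sorted protein, it was 1.55 (0.84 to 2.27, adjusted p = 0.00303), and for *Lgals8* 1.07 (0.66 to 1.48, adjusted p = 0.00123). *Lgalsl* had a value of −1.86 (−2.92 to −0.79, adjusted p = 0.00930), with −1.59, −0.58 and −3.41 in T3, T4 and T5. Each of the 6 genes had the same sign in 3 of 3 tumors. Over all genes 26.2% were called above 0 and 24.9% below 0. Of the 12 pan-leukocyte markers 12 were called above 0 (median 4.80), and their part in the result was not tested.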

How the results depend on the processing

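Across 35 results for the 5 members, 463 of 470 alternative values kept their direction and 428 also their side of the threshold, while 7 reversed, 29 were no longer called and 6 became called. The GAL1 sort and the difference between the sorts kept every member's call. In the GAL1 sort the highest adjusted p over 13 alternatives was 0.0176 (*Lgals8*), and for the difference between the sorts 0.0359 (*Lgals1*). The cause of the changes below was not tested. Fits that leave out samples have fewer of them to test.

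Without the replicate block, these were no longer called at unchanged log2 fold changes: PDGFRA+ over GAL1+, *Lgals3* (−1.71) and *Lgals3bp* (−1.24); PDGFRA- over GAL1+, *Lgals9* (−1.10) and *Lgals3bp* (−1.37); PDGFRA+ over GAL1-, *Lgals3* (2.83); PDGFRA- over GAL1-, *Lgals1* (0.73). It changed no other member's call. Genes called went from 6900 to 3154, 3652 to 725, 1504 to 612 and 4200 to 1444 in those comparisons. With only the populations compared in the fit, the last 3 counts were 1893, 3386 and 1328, *Lgals1* was called in PDGFRA+ over GAL1- (0.46) and not in PDGFRA- over GAL1- (0.73).

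Without a trend, *Lgals9* in PDGFRA- over GAL1+ (−1.10) and *Lgals1* in PDGFRA- over GAL1- (0.73) were not called. After quantile normalization *Lgals1* was not called in PDGFRA+ over GAL1+ (−0.65) or PDGFRA- over GAL1- (0.63). *Lgals8* in PDGFRA- over GAL1+ was called after quantile normalization (−0.45), median centring (−0.54) or voom weights (−0.41), and *Lgals1* after median centring (−0.70). *Lgals8* in PDGFRA+ over GAL1- reversed after quantile normalization (−0.048) or median centring (−0.069). The median over all genes in that comparison moved from −0.02 to −0.15 and −0.13. It moved by median centring from 0.01 to −0.15 in PDGFRA+ over GAL1+ and from 0.03 to −0.11 in PDGFRA- over GAL1+, and by quantile normalization from 0.02 to −0.12 in PDGFRA- over GAL1-.

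Leaving out tumors, or the PDGFRA- library of T5 where it applies, gave these ranges of log2 fold changes for members whose call or sign changed. PDGFRA+ over PDGFRA-: *Lgals9* −0.68 to 0.18 and *Lgals3bp* −0.34 to 0.39. PDGFRA+ over GAL1+: *Lgals1* −1.16 to −0.47, *Lgals3* −2.06 to −1.23, *Lgals9* −1.43 to −0.98 and *Lgals3bp* −1.37 to −1.03, with 2110 to 4863 genes called. PDGFRA- over GAL1+: *Lgals1* −0.81 to −0.36, *Lgals9* −1.46 to −0.75 and *Lgals3bp* −1.68 to −1.03, with 0 (without T4) to 5837 genes called. PDGFRA+ over GAL1-: *Lgals3* 2.51 to 3.21, *Lgals8* −0.038 to 0.11, *Lgals9* 1.44 to 1.90 and *Lgals3bp* 2.07 to 2.42, with 0 (without T3) to 1126 genes called. PDGFRA- over GAL1-: *Lgals1* 0.62 to 0.82 and *Lgals9* 1.54 to 2.12, with 920 to 3287 genes called.

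Limits are the 3 tumors per population, sorts that can overlap, and the lack of a measure of cell types in each library. Read depth limited *Lgals7*, which was at or under 3 reads in 5 libraries, and no member.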

Other observations

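Reads of *Lgals7*, a galectin gene outside the 5 members, were few in T3 in every population. Populations are given in the order GAL1+, PDGFRA-, PDGFRA+, GAL1-. T3 had 3, 2, 3 and 2 recovered reads of the gene, all at or under the floor of 3 reads. T4 had 9, 15, 1 and 31 reads, and T5 had 27, 20, 76 and 102. Tumors were not compared by a test.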
